A study of Homo sapiens with 2 samples.

Results

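The genes that make sialic acid, carry it into the Golgi apparatus and attach it to glycans were examined in KYSE150, a cell line established from human esophageal squamous cell carcinoma (ESCC). The knockdown cells stably carried a hairpin against lncRNA625, a long non-coding RNA (shlncRNA625), and the control cells carried a scrambled hairpin (shscramble). Both hairpins were delivered to the same line, per the study's methods by lentivirus followed by puromycin selection. The methods also describe a screen of multiple clones for knockdown, and nothing in the labels gives the number of clones. The part of clone differences in the values below was not tested. RNA of each group was hybridized to 1 Affymetrix Human Transcriptome Array 2.0. With 2 arrays and no replicate, no value below has an error or a test, and precision is limited by the number of arrays.

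The 10 genes were GNE, NANS, NANP, CMAS, SLC35A1, SLC17A5, ST3GAL1, ST3GAL4, ST6GAL1 and ST6GALNAC2. They were chosen by pathway while the array difference of GNE was already known, so that difference is a description and supports nothing by itself. A gene was read from the row whose annotation names that gene alone, or from the brightest such row where it had several. All 10 genes had such a row, out of 22465 genes that were named by a single-gene row. Values are on the authors' log2 scale, and differences are knockdown minus control. Genes were counted where the mean of both arrays reached 4.97, the median over single-gene rows, which 11323 genes did. Of the 10 genes, 9 reached this signal limit and ST6GAL1 did not.

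Sialic acids are acidic sugars at the outer ends of glycans on secreted and cell surface glycoproteins and glycolipids. GNE starts their synthesis in the cytosol from an activated amino sugar, and its epimerase step is rate-limiting and is inhibited by the activated end product. NANS and NANP then build and dephosphorylate sialic acid, CMAS activates it in the nucleus, SLC35A1 carries the activated sugar into the Golgi, and sialyltransferases place it on galactose, N-acetylgalactosamine or another sialic acid. SLC17A5 exports free sialic acid from lysosomes after sialidases have released it. Altered sialylation of surface glycans is a long known feature of carcinoma cells.

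GNE was the 1 gene of the 9 that differed by more than the 1.5-fold limit the study used. Its signal was 7.87 on the knockdown array, against 6.21 on the control array, a log2 difference of 1.66 or 3.15-fold on the deposited scale. ST6GALNAC2, a sialyltransferase of O-glycans, was higher by 0.53, just under the limit of 0.58, and SLC35A1 was higher by 0.029. The other 6 of the 9 genes were listed with identical values on the 2 arrays, and 0 were lower. Over all 11323 genes past the signal limit, 1.11% were higher by more than 1.5-fold and 0.477% were lower by more than 1.5-fold. By any amount, 11.8% were higher and 12.1% lower, and 76.0% were equal. With 9 genes and 1 array per group, these shares cannot set the sialic acid genes apart from the rest. The median difference was 0 both over the 9 genes and over all genes, as it had to be with most values equal.

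**Figure D1:**
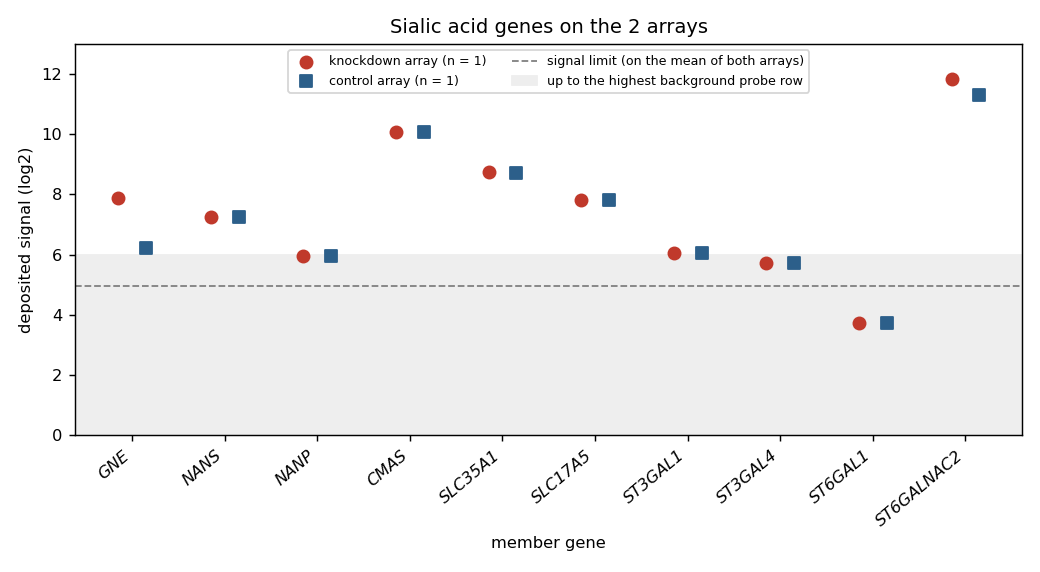
Deposited log2 signal (vertical axis) of the 10 sialic acid genes (horizontal axis) on the knockdown array (red circles) and the control array (blue squares), 1 array each. The dashed line is the signal limit of 4.97, and the grey band ends at 6.003, the highest background probe row. The symbols of GNE stand 1.66 apart and those of ST6GALNAC2 0.53 apart, while the other pairs lie level or, for SLC35A1, 0.029 apart.

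Since GNE carries the main difference, the bases before its RefSeq transcription starts are shown. RefSeq on GRCh38.p14 gives 2 windows for GNE on the minus strand of chromosome 9, and the array row does not tell transcripts from these starts apart. The 250 bases before each start are printed 5′ to 3′ on the strand of the gene. Capitals mark matches, on either strand, to the GC box GGGCGG or the CCAAT box.
GNE, outer start, chr9:36276979-36277228: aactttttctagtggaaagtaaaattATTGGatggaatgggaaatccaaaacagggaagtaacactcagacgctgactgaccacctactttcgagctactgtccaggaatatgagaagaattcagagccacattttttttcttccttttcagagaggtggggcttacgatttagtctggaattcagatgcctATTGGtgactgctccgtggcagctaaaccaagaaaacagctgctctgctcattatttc
GNE, inner start, chr9:36258449-36258698: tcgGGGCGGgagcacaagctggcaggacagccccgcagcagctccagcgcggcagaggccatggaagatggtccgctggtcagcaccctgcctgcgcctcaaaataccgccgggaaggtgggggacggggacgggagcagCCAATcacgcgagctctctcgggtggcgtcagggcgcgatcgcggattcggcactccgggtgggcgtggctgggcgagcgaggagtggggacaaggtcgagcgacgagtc

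The GNE windows differ in composition. The window before the inner start had 70% G and C and held 1 GC box and 1 CCAAT box, while that before the outer start had 42% G and C and held 0 GC boxes and 2 CCAAT boxes. Of 35116 RefSeq windows of the same length, 42.6% held GGGCGG, 32% held CCAAT, and the median share of G and C was 58%. TTCNNNGAA, the letters of STAT sites, AANNGAAA, those of IRF sites, and TATAAA, those of the TATA box, were matched in neither GNE window. They were matched in 6.57%, 20.3% and 10.7% of all windows. The matches in the GNE windows did not overlap each other. A match here is a description of letters, not of a bound site.

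Windows of 8 of the 10 genes were read, and ST3GAL1 and ST6GALNAC2 had no window. NANS, the synthase that follows GNE, had 5 GC boxes and 2 CCAAT boxes in its window. SLC35A1 had 2 GC boxes, CMAS had 2 GC boxes and 1 match each to TATAAA and AANNGAAA, and NANP had none of the 5 motifs. ST6GAL1 had 2 GC boxes, SLC17A5 had 4 GC boxes and 1 CCAAT box, and a window of ST3GAL4 also matched AANNGAAA. TTCNNNGAA was matched in 0 of the 11 windows of these genes and in 6.57% of all windows. At that share, 11 windows are too few to tell anything from 0 matches.

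In the order of differences over all genes past the signal limit, GNE stood at place 10. The interferon-stimulated genes IFI44 and IFI6 came just before it, with differences of 1.91 and 1.66. The chemokine gene CCL2 and the hypoxia-responsive NDRG1 came just after it, with 1.62 and 1.60. This order says nothing of shared control. Among the 1947 genes whose mean signal lay within 0.5 of that of GNE, 2 differed upward by at least as much, GNE among them, and 83.2% were equal. The control value of GNE, 6.21, lay only a little above 6.003, the highest of 23 background probe rows, and its knockdown value of 7.87 lay clearly above it. The median of those 23 rows was 3.34 on each array. The background range is taken here up to their highest row. The part of background in the size of the GNE difference was not tested. In bulk RNA, more cells with GNE and more GNE RNA per cell cannot be told apart.

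The nearest genes on either side of GNE on chromosome 9 with rows of their own are named beyond the rule, for their position. CLTA, which encodes a clathrin light chain, was equal on both arrays at 8.26. MELK, a mitotic kinase, had 10.85 on the knockdown array and 10.99 on the control array, a difference of -0.14. CCIN, at 3.09 on the knockdown array and 3.34 on the control array, was under the signal limit. MIR4475, at 4.27 on the knockdown array and 4.24 on the control array, was also under it, so that of these 4 genes MELK alone had unequal values past the limit. In RefSeq the non-coding RNA LOC124902150 overlaps the span of GNE. No row was tied to it here, so its part in the GNE row was not tested.

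The enzymes after GNE on the synthesis route were listed with identical values on both arrays, which is not read as an absence of change. NANS, which condenses the product of GNE with phosphoenolpyruvate, was at 7.24 on the knockdown array and at 7.24 on the control array. NANP, the phosphatase that follows, was at 5.94 on both, no higher than the top background probe row. CMAS, which makes the activated sugar, was at 10.09 on both. Among genes of like signal, 82.4% were equal for NANS, 89% for NANP and 63.3% for CMAS. NPL, the lyase that breaks sialic acid down, was at 4.69 on both and under the signal limit. Of the 7 genes of synthesis and transport, 6 passed the signal limit, of which GNE and SLC35A1 were higher, 4 were equal and 0 were lower. The equal share was 66.7%, against 76.0% over all genes past the limit.

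Both transporters were clearly above the background. SLC35A1, the route of activated sialic acid into the Golgi, had 8.75 on the knockdown array, against 8.72 on the control array, a difference of 0.029 that 159 of 1477 genes of like signal reached or passed. SLC17A5, the lysosomal exporter, was at 7.83 on both arrays. Among 12 nucleotide sugar transporters past the limit, SLC35A1 and SLC35A5 were higher, the second by 0.057, and the other 10 were equal. That equal share was 83.3%, against 76.0% over all genes past the limit.

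Identical values on the 2 arrays were frequent throughout the table. Of all 70523 rows, 80.2% had the same value on each array, to every deposited digit. Identical pairs were less frequent at high signal. Among genes within 0.5 of the signal of NANP, 89% were equal, and for CMAS the share was 63.3%. For ST6GALNAC2, which did differ, it was 52.1%. An identical pair is therefore not read here as a measured absence of change.

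**Figure D2:**
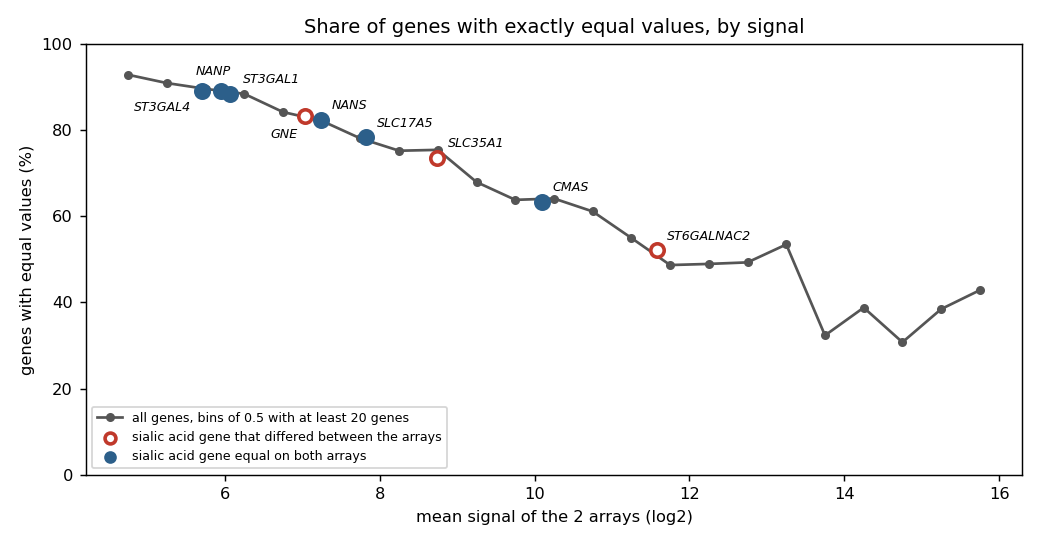
Percentage of genes with exactly equal values on both arrays (vertical axis) by mean log2 signal (horizontal axis), for all genes past the signal limit in bins of 0.5 (grey line) and around each of the 9 sialic acid genes past it (circles, share among genes within 0.5 of that gene). Filled circles are genes that were equal and open circles are GNE, SLC35A1 and ST6GALNAC2, which differed. The share was 89% at the signal of NANP, 83.2% at that of GNE and 52.1% at that of ST6GALNAC2.

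Some of the equal values were also shared with other rows of the table, to all deposited digits. The value of ST6GAL1, 3.74, stood in 624 other rows of the knockdown array and 615 other rows of the control array. That of ST3GAL4, 5.71, stood in 42 other rows of each array, among them the row of the amino sugar kinase NAGK. The value of NANP stood in 36 other rows of the knockdown array and 33 of the control array, and that of NANS in 10 of the knockdown array and 12 of the control array. GNE, CMAS, SLC35A1, SLC17A5 and ST6GALNAC2 shared their values with 0 other rows. The 56550 equal rows held 11042 distinct values, and the 13973 unequal rows held 11786 distinct control values. The sources used here do not name the step that gave repeated values.

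Among the sialyltransferases, only ST6GALNAC2 had unequal values, and it also had the highest signal of the family. ST6GALNAC2, which adds sialic acid to the N-acetylgalactosamine of O-glycans, had 11.84 on the knockdown array, against 11.31 on the control array. The difference of 0.53 was 1.44-fold and stood at place 145 of all genes, and 15 of 649 genes of like signal, itself included, differed upward by at least as much. Both its values were far above the background probe rows. The other 3 chosen sialyltransferases were equal. ST3GAL1, which caps the galactose of core O-glycans, was at 6.07 on both arrays. ST3GAL4, which caps galactose on N-glycans, O-glycans and glycolipids, was at 5.71 on both, within the background range. ST6GAL1, which caps N-glycans, was at 3.74 on both and under the signal limit, so its equality carries no information on a change. Nor is the equality of ST3GAL1 or ST3GAL4 read as an absence of change. Among genes of like signal, 88.4% and 89% were equal for these genes.

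The whole family had 20 genes, each with a row of its own, and 8 passed the signal limit. Of these 8, ST6GALNAC2 was higher, 7 were equal, and 0 differed by more than 1.5-fold. The equal share was 87.5%, against 76.0% over all genes past the limit. Among genes of like signal, 86.3% to 90.3% were equal for each of these 7, and 52.1% for ST6GALNAC2. The equal pairs are therefore not read as a trait of the family. Those outside the chosen 10 were ST3GAL2 at 5.94, ST3GAL3 at 5.86, ST3GAL5 at 5.51, ST6GALNAC5 at 6.03 and ST6GALNAC6 at 6.50 on both arrays. ST3GAL5 makes the simplest ganglioside, and the last 2 act mainly on gangliosides. Only 4 of the 20 sialyltransferases had a control value above the highest background probe row, namely ST6GALNAC2, ST3GAL1, ST6GALNAC5 and ST6GALNAC6. The 12 genes under the signal limit lay between 3.29 and 4.61 and were equal on both arrays, all 6 ST8SIA genes among them, whose enzymes add sialic acid to sialic acid.

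**Figure D3:**
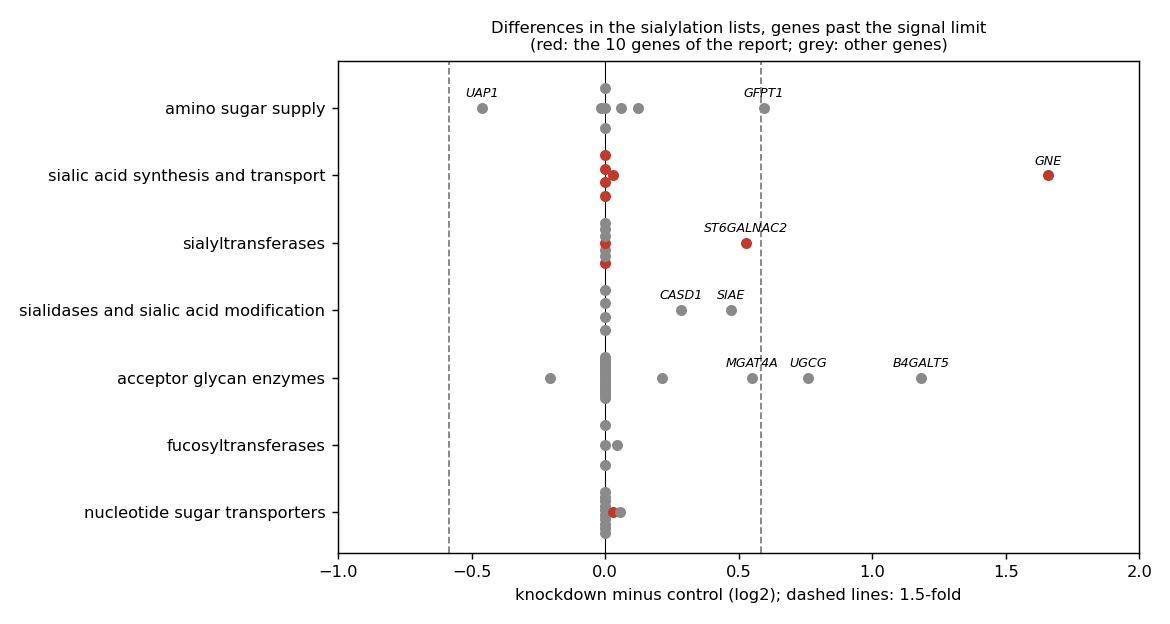
Difference of knockdown minus control on the log2 scale (horizontal axis) for every gene past the signal limit in 7 lists of the sialylation route (vertical axis), 1 point per gene, spread vertically where values are 0. Red points are the genes described here and grey points the other genes of the lists, and dashed lines mark 1.5-fold. GNE at 1.66, B4GALT5 at 1.18, UGCG at 0.76 and GFPT1 at 0.59 lie past the limit.

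The genes that remove or modify sialic acid were few and mostly equal. Of 7 genes, 6 passed the signal limit, 2 were higher, 4 equal and 0 lower, and 0 were past 1.5-fold. The equal share was 66.7%, against 76.0% over all genes past the limit. SIAE, an esterase that takes acetyl groups off sialic acid, had 9.50 on the knockdown array, against 9.03 on the control array, a difference of 0.47. CASD1, the enzyme that adds such acetyl groups, had 9.18 on the knockdown array, against 8.89 on the control array, a difference of 0.29. The sialidases NEU1, NEU2 and NEU3 were at 5.45, 5.17 and 6.84 on both arrays, the first 2 within the background range. NEU1 had 8 rows, of which only the brightest is given. CTSA, the lysosomal protein that protects NEU1, was at 11.20 on both.

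The genes that supply the amino sugar from which GNE starts held higher, equal and lower values. Of 8 genes past the signal limit, 3 were higher, 3 equal and 2 lower, and 1 was past 1.5-fold. Equal values made up 37.5% of these 8, against 76.0% of all 11323 genes past the limit, of which 180 were past 1.5-fold. For the unequal genes of the list, 49.3% to 65% of genes of like signal were equal, and for the equal ones 78.6% to 89%. The low equal share is therefore not read as a trait of these genes. GFPT1, the first and rate-limiting enzyme of the hexosamine route, had 12.07 on the knockdown array, against 11.48 on the control array, a difference of 0.59, barely past the limit. UAP1, which makes the activated amino sugar that GNE uses, had 9.71 on the knockdown array, against 10.17 on the control array, a difference of -0.46. OGT, which adds the same amino sugar to cytosolic and nuclear proteins, and OGA, which removes it, were higher by 0.12 and 0.058.

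Of the enzymes that build the glycans to which sialic acid is added, 23 passed the signal limit, 4 were higher, 18 equal and 1 lower, and 2 were past 1.5-fold. Equal values made up 78.3% of these 23, against 76.0% of all 11323 genes past the limit, of which 180 were past 1.5-fold. With 23 genes and 1 array per group, these counts cannot set this list apart from the rest. B4GALT5, which adds the galactose of lactosylceramide, had 13.80 on the knockdown array, against 12.62 on the control array, a difference of 1.18 at place 24 of all genes. UGCG, which makes the glucosylceramide before it, had 12.78 on the knockdown array, against 12.02 on the control array, a difference of 0.76 at place 66. Both pairs of values lay far above the background. ST3GAL5, the sialyltransferase that uses lactosylceramide, was equal at a level within the background range. MGAT4A, an N-glycan branching enzyme and 1 of the 4 higher ones, had 6.49 on the knockdown array, against 5.94 on the control array. That control value was within the background range and shared with 33 other rows, NANP among them, so the size of the difference is uncertain. B4GALT1, which acts on N-glycans, was higher by 0.21. Of 4 fucosyltransferases past the limit, FUT3, which completes sialylated Lewis antigens, was higher by 0.045 at a level within the background range. The other 3 were equal, a share of 75%, against 76.0% over all genes. The medians of all these lists were 0, as was that of all genes. In each list but that of amino sugar supply, most genes were equal, so the median had to be 0. These medians are not read as an absence of change.

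**Figure D4:**
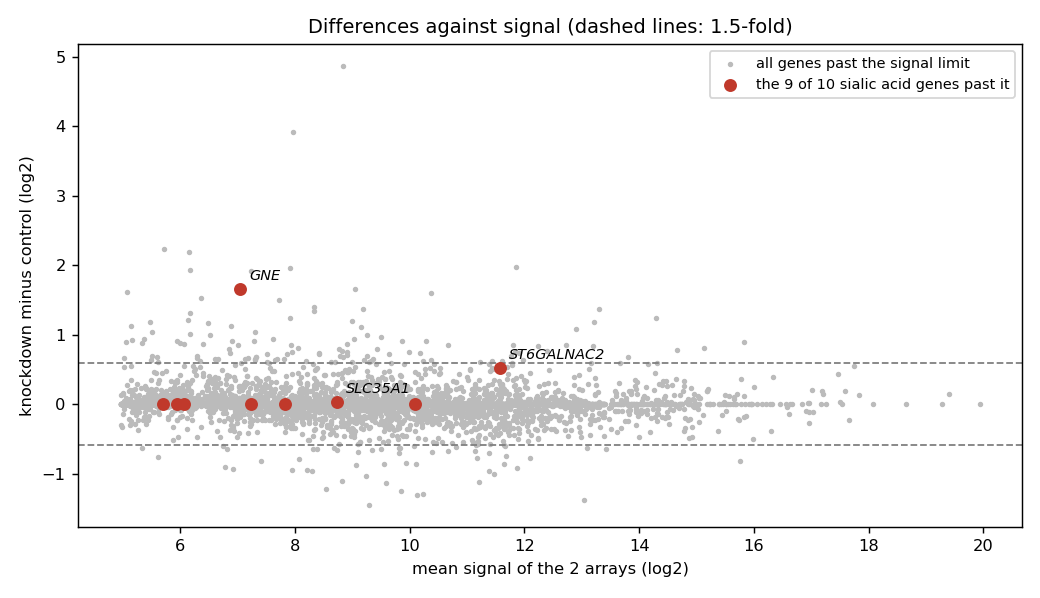
Difference of knockdown minus control on the log2 scale (vertical axis) against the mean log2 signal of both arrays (horizontal axis) for all 11323 genes past the signal limit (grey) and the 9 sialic acid genes among them (red), with dashed lines at 1.5-fold. GNE lies at 1.66, ST6GALNAC2 at 0.53 and SLC35A1 at 0.029, and the other 6 lie on 0.

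Facts of the arrays as a whole bear on these values as follows. Over all rows the knockdown array had a median of 4.35 and the control array one of 4.34. The signal of lncRNA625 itself was not analysed here, so the knockdown was not checked. Of 10 squamous markers, 8 had a row and all 8 passed the signal limit. Of these, 1 was higher, 4 were equal and 3 lower, and 0 were past 1.5-fold. The equal share was 50%, against 76.0% over all genes past the limit. SOX2 was the higher one, with 8.40 on the knockdown array and 7.87 on the control array, and KRT5 had the largest lower difference, with 16.11 on the knockdown array and 16.50 on the control array. KRT14 was at 5.63 on both, within the background range, and TP63 had no row of its own. All 15 leukocyte, fibroblast and endothelium markers that had their own row were under the signal limit, with PTPRC at 3.69, COL1A1 at 4.41 and PECAM1 at 3.53 on both arrays. The 12 sialic acid binding lectins with a row of their own, genes mostly of leukocytes, lay between 3.53 and 4.36 on both arrays and also under the limit.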

How the data were processed

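Total RNA was labelled with biotin and hybridized to the Human Transcriptome Array 2.0, 1 array per group. The values deposited by the authors are log2 signals made with RMA (no version in the labels), which corrects background, normalizes between arrays and summarises probes. They reach 19.93, above what log2 of a 16-bit scanner allows, and the sources used here do not name the step behind this. A sample label names siRNA where the series names a stable hairpin.

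Of 70523 rows, 23781 carried 1 gene symbol in the platform annotation. Of these, 21497 were matched by gene ID to RefSeq, whose symbol was then used. Each gene took its row with the highest mean. The study's 1.5-fold limit was applied to differences, and the 2-fold limit of the methods was tried as well. The 10 genes and the lists were chosen with earlier results of these data known. Named are the 10 genes, the genes past the limit in the lists of synthesis, sialyltransferases and sialidases, up to 4 genes with the greatest absolute difference in each other list, 2 genes on either side of GNE in the order of differences, and 6 check markers. Also tried were a second quantile normalization, median centring, loess with a span of 0.3, the mean of rows, and filters on signal. The procedure was run on a copy of the control array with known shifts added. That copy held no noise, so the run checked the counting only and says nothing of array error. The software was Python 3.11.15 with NumPy 2.4.6, pandas 2.3.3, statsmodels 0.14.6, matplotlib 3.10.9 and SciPy 1.17.1.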

Additional observations from a re-analysis of the deposited data

Results flagged for a closer look

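Rows annotated with several gene symbols were not used above. They held 4 genes of the sialylation lists that have no row of their own, SLC35B2, AMDHD2, FUT4 and SIGLEC5, and 1 signal among them differed upward. The row shared by SLC35B2, a sulfate donor transporter of the Golgi, and MIR4647 had 7.50 on the knockdown array and 7.38 on the control array, a difference of 0.13. The gene behind this signal cannot be told from the row.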

How the results depend on the processing

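No paired analysis was possible because each group held 1 array, and for the same reason no array could be left out. The number of the 10 genes past 1.5-fold was 1, and it was 0 when signal had to reach the 75th percentile, which GNE did not and which 4 of the 10 genes did. The synthesis and transport list then also had 0. The difference of GNE itself lay between 1.64 and 1.66 and that of ST6GALNAC2 between 0.52 and 0.54 under median centring, a second quantile normalization, loess and the mean of rows. No difference of the 10 genes moved by more than 0.027 under these 4 settings. Loess left 0 genes of the amino sugar list past the limit, since GFPT1 lies at it. At 2-fold, 0 amino sugar genes and 1 acceptor glycan enzyme were past it, and over all genes 33 higher and 11 lower, in place of 126 and 54. The 75th percentile gave 76 higher genes in all. Of the 7 sialic acid genes above every background probe row on both arrays, 1 was past 1.5-fold and 4 were equal, a setting added once the values were known. Signal near background limits what can be said of NANP, ST3GAL4 and ST6GAL1. The same holds for ST3GAL1 and for the control value of GNE, which lay only a little above the highest background probe row.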
